A study of Mus musculus with 6 samples.

Results

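Aquaporins are membrane channels for water, and some of them also let glycerol or other small solutes through. The 8 genes described here are the water channels Aqp1, Aqp2, Aqp3, Aqp4, Aqp6, Aqp7 and Aqp11 and Avpr2, the vasopressin V2 receptor. They were taken by symbol from the 33696 genes of the deposited count matrices, and all 8 were found. Single cells from kidneys of 3 sham and 3 DOCA-salt mice were sequenced by the 3′ chemistry of 10x Genomics, 1 library for each mouse. All were male C57BL/6 mice, 8 to 10 weeks old when purchased. The left kidney of a DOCA-salt mouse had been removed, and 1 week later the mouse received a 50 mg pellet of deoxycorticosterone acetate (DOCA), a mineralocorticoid, under the skin and drank 1% NaCl for 21 days. The sham mice had a sham operation, no pellet and normal drinking water, so that the removal of a kidney and DOCA-salt cannot be told apart here.

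Vasopressin is the antidiuretic hormone. It binds the V2 receptor on the blood side of principal cells of the connecting tubule and collecting duct, which raises cAMP, and protein kinase A then drives AQP2 from vesicles into the urine side of the membrane and raises Aqp2 transcription. Water that enters through AQP2 leaves on the blood side through AQP3 and AQP4. AQP1 is the constitutive water channel of the proximal tubule, the descending thin limb and the descending vasa recta. AQP7 carries water and glycerol in the last segment of the proximal tubule, AQP11 lies within the cells of the proximal tubule, and AQP6 lies in vesicles of type A intercalated cells, the acid-secreting cells of the collecting duct.

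On the GRCm39 build, with GENCODE gene models, Aqp2 lay on chromosome 15 (chr15:99476936-99485016, plus strand, 4 exons) and Aqp6 began 14058 bases after its end (chr15:99499075-99503358, plus strand, 4 exons). Aqp7 (chr4:41032835-41048211, 8 exons) and Aqp3 (chr4:41092722-41098183, 6 exons) were neighbors on the minus strand of chromosome 4, 44510 bases apart. Aqp1 lay at chr6:55313068-55325540 on the plus strand (4 exons), Aqp11 at chr7:97373213-97387524 on the minus strand (3 exons) and Avpr2 at chrX:72935708-72939108 on the plus strand (3 exons). The span of Avpr2 overlaps those of L1cam and Arhgap4, which are on the opposite strand and were counted as genes of their own. Aqp2 and Aqp6 overlap the opposite-strand RNA gene Gm34765 and Aqp7 overlaps Gm68796, neither of which had counts of its own.

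The promoters of Aqp2, Aqp3 and Avpr2 are shown because all 3 genes were called as lower in connecting tubule cells, while in principal cells Aqp3 was called and Aqp2 and Avpr2 were not. Aqp11 was also called as lower in both, and its promoter is not shown. Each sequence runs from 250 bases before to 50 bases after the start of the transcript (canonical GENCODE transcript, sequence of GRCm39, given 5′ to 3′ on the strand of the gene: chr15:99476686-99476985 for Aqp2, chr4:41098134-41098433 for Aqp3 and chrX:72935458-72935757 for Avpr2). Capitals mark matches on either strand to 3 motifs. The first, TGACG, is the core of the cAMP response element TGACGTCA and so overlaps with it. Steroid hormone receptors bind the hexamer TGTTCT. The last, AGATAA, is bound by Gata factors.
Aqp2: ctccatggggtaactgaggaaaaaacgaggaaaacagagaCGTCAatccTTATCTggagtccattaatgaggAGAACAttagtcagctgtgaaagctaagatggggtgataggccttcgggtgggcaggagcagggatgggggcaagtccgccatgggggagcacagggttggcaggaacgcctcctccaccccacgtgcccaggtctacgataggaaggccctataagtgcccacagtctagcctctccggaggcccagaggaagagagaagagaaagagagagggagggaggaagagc
Aqp3: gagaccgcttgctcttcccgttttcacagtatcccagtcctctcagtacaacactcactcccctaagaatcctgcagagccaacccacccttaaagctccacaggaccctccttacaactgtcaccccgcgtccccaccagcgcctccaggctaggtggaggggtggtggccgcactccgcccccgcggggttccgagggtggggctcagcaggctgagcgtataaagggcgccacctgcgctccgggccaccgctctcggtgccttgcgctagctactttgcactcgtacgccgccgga
Avpr2: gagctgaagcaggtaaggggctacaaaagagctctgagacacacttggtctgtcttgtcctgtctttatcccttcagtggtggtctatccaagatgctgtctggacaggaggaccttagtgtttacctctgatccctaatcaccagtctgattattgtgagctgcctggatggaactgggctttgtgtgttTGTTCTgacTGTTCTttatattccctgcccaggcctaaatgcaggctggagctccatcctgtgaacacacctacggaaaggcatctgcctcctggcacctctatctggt
The 3 matches in the Aqp2 promoter were all on the opposite strand, with their first base -210 (TGACG), -201 (AGATAA) and -178 (TGTTCT) from the start, and did not overlap. The Avpr2 promoter held TGTTCT at -59 and -50 on its own strand, and the Aqp3 promoter held none of the letters searched. The Aqp11 promoter held none of them either. Of 21770 promoters of the same length, 22.6% held TGACG, 16.97% TGTTCT, 10.6% AGATAA and 2.44% the whole TGACGTCA, which was in none of the 3.

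Of 76774 barcodes, 55630 were kept as cells (7701 to 9933 per mouse), and the libraries held between 93172739 and 137819127 UMIs (unique molecular identifiers, each 1 captured transcript molecule). After the limits on quality, any pair of libraries shared 18 to 41 barcode sequences. Cluster 22 (646 cells) came to 95.05% from DOCA-salt mouse 2 and had no name. Levels below are in CPM, the counts-per-million of UMIs among all UMIs of a mouse's cells of a type. A log2 change is the DOCA-salt level over the sham level on the log2 scale from edgeR, given with its standard error (SE). For it edgeR scaled the libraries by its TMM factors, which the CPM do not contain. A log2 change can therefore differ from the ratio of the printed means. A gene was called when the p adjusted over all genes of that fit was below 0.05. The 3′ method counts 1 end of a transcript, so levels were not divided by gene length.

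Cell types were named from markers that include none of the 8 genes. Principal cells fell from 2.28 ± 0.388% of a mouse's cells in sham to 1.37 ± 0.152% in DOCA-salt mice (log2 change -0.73 ± 0.27 SE, adjusted p = 0.0171, edgeR), and connecting tubule cells from 2.17 ± 0.528% to 1.23 ± 0.113% (-0.81 ± 0.27 SE, adjusted p = 0.0113, edgeR), among 8 of 18 types whose share was called. The principal cell call did not hold without sham mouse 2 (adjusted p = 0.0601) or DOCA-salt mouse 2 (0.126), nor the connecting tubule call without DOCA-salt mouse 2 (0.0856, all edgeR). The names were not equally firm. When cells with over 20% mitochondrial UMIs were left out and the rest clustered again, the principal cells kept their name in 99.6% in sham and 97.1% in DOCA-salt mice. The connecting tubule cells did so in 80.7% in sham and 5.46% in DOCA-salt mice, and became distal convoluted tubule, the segment upstream, in 9.88% in sham and 70.5% in DOCA-salt mice. They became principal cells in 8.23% in sham and 21.9% in DOCA-salt mice. In the cells named connecting tubule, the 5 connecting tubule markers summed to 42045 to 54904 CPM in sham and 24564 to 31240 in DOCA-salt mice, and the 6 principal cell markers to 4402 to 6486 CPM in sham and 2109 to 2413 in DOCA-salt mice. Of the 5 connecting tubule markers 3 were lower and 1, the sodium-calcium exchanger Slc8a1, was higher (6849 ± 1273 to 12486 ± 1883 CPM) in every DOCA-salt mouse, and of the 6 principal cell markers 4 were lower and none was higher. Values for connecting tubule cells therefore compare cells that share a name but differ in their markers, and the part of this in each value was not tested.

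In whole kidneys, all cells of a mouse summed, Aqp3 and Aqp2 fell and Aqp4 rose, which made 3 of the 8 genes called, against 17.3% of all 19658 genes tested. Aqp3, the channel of the blood side, stood at 98.0, 90.3 and 98.4 CPM in the sham mice (mean 95.6 ± 4.59 SD) and 36.9, 38.7 and 46.5 in the DOCA-salt mice (40.7 ± 5.10). The highest DOCA-salt mouse was below the lowest sham mouse by more than the spread within either group, the mean was 2.35-fold lower, and the log2 change was -1.35 ± 0.11 SE (edgeR adjusted p = 0.000342). Aqp2, the vasopressin-regulated channel of the urine side, stood at 292, 267 and 341 CPM in the sham mice (mean 299.9 ± 38.0 SD) and 156, 227 and 178 in the DOCA-salt mice (187 ± 36.6). The groups did not overlap, with DOCA-salt mouse 2 nearest to sham, and the log2 change was -0.80 ± 0.16 SE (edgeR adjusted p = 0.0116). Without DOCA-salt mouse 3 its adjusted p was 0.0554 (edgeR). In whole kidneys fewer cells of a type and less RNA per cell cannot be told apart.

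Aqp4, the second blood-side channel, went the other way, at 25.9, 18.9 and 18.2 CPM in the sham mice (mean 21.0 ± 4.28 SD) and 31.4, 50.9 and 38.6 in the DOCA-salt mice (40.3 ± 9.87). Every DOCA-salt mouse was above every sham mouse (log2 change 0.82 ± 0.19 SE, edgeR adjusted p = 0.0225). This call was lost without sham mouse 3 (adjusted p = 0.0754), DOCA-salt mouse 2 (0.0599) or DOCA-salt mouse 3 (0.0591, all edgeR). The remaining 5 genes were not called. Aqp1 stood at 316, 305 and 299 CPM in the sham mice (mean 307 ± 8.59 SD) and 262, 286 and 216 in the DOCA-salt mice (255 ± 35.5). The log2 change of Aqp1 was -0.38 ± 0.13 SE (edgeR adjusted p = 0.0717), and its groups did not overlap. Avpr2 stood at 14.3, 10.6 and 15.8 CPM in sham and 8.89, 11.5 and 9.54 in DOCA-salt mice. This was a log2 change of -0.56 ± 0.17 SE (edgeR adjusted p = 0.0605), with DOCA-salt mouse 2 above sham mouse 2. Aqp11 (-0.48 ± 0.16 SE, edgeR adjusted p = 0.0825), Aqp6 (0.087 ± 0.22 SE, edgeR adjusted p = 0.831) and Aqp7 (0.080 ± 0.13 SE, edgeR adjusted p = 0.725) overlapped between the groups.

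**Figure D1:**
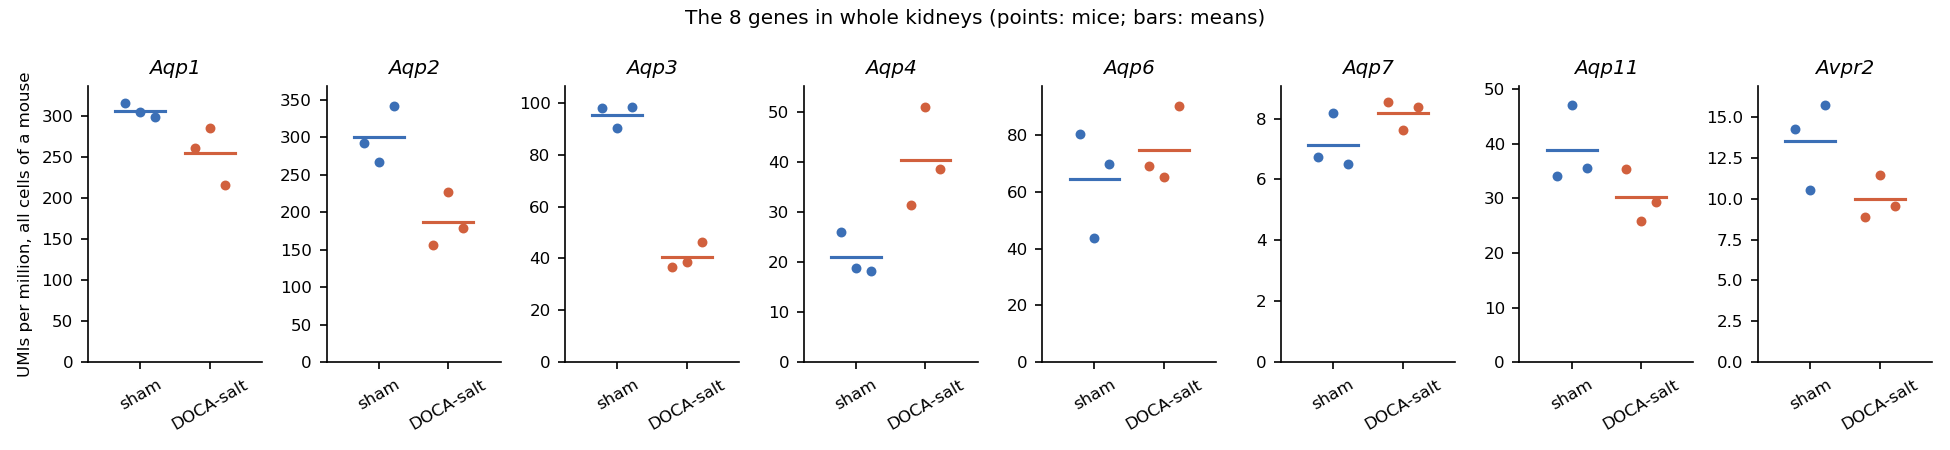
Levels of the 8 genes in whole kidneys, in CPM of all cells of a mouse (linear axes from 0). Each point is 1 mouse, bars are means of 3 mice. Aqp1, Aqp2 and Aqp3 were lower and Aqp4 was higher in every DOCA-salt mouse than in every sham mouse, and the other 4 genes overlapped. The share of all genes without overlap was not computed.

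Proximal tubule cells made up 64.9 ± 2.36% of the sham cells and 54.1 ± 4.00% of the DOCA-salt cells. With them left out of the sums, 5 of the 8 genes were called, against 18.8% of 18384 genes. Aqp3 (-1.78 ± 0.11 SE, edgeR adjusted p = 0.000123), Aqp2 (-1.202 ± 0.13 SE, edgeR adjusted p = 0.000876), Avpr2 (-0.96 ± 0.15 SE, edgeR adjusted p = 0.00362) and Aqp1 (-0.79 ± 0.18 SE, edgeR adjusted p = 0.0200) were lower. Aqp7 was higher, at 1.26, 1.68 and 1.39 CPM in sham and 4.05, 3.57 and 4.35 in DOCA-salt mice. The Aqp7 log2 change was 1.46 ± 0.18 SE (edgeR adjusted p = 0.00154), and Aqp4 was no longer called (0.38 ± 0.20 SE, edgeR adjusted p = 0.237).

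The 8 genes differed in where their UMIs lay. Principal cells held 76.4% of all Aqp2 UMIs in sham and 80.4% in DOCA-salt mice, 87.1% and 82.4% of those of Aqp4, 54.9% and 53.7% of those of Aqp3 and 56.7% and 64.7% of those of Avpr2. The share in connecting tubule cells went from 9.36% to 2.43% for Aqp2, from 10.4% to 2.84% for Aqp3 and from 16.6% to 7.13% for Avpr2. Type A intercalated cells held 74.5% and 66.0% of the Aqp6 UMIs. The proximal tubule held 92.9% and 75.3% of those of Aqp7 and 89.6% and 82.1% of those of Aqp11. Aqp1 was spread over the thin limb (42.7% and 36.9%), the proximal tubule (30.8% and 29.97%) and the endothelium (24.3% and 21.7%). Cluster 31 (328 cells) mixed leading genes of connecting tubule and type B intercalated cells, had no name and was part of no type. It held Aqp2 at 1076, Aqp3 at 354, Aqp4 at 120, Aqp6 at 554 and Avpr2 at 67.5 CPM. Its cells were deep, at a median of 3.10 times the median UMIs of their mouse's cells.

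Levels over the 20 named types were ordered within each group. Aqp2 was highest in principal cells (8188 ± 1142 CPM in sham, 7288 ± 1294 in DOCA-salt mice), then in connecting tubule cells (1347 ± 51.3 and 295 ± 67.2 CPM) and cycling cells (311 ± 376 and 94.9 ± 95.7 CPM), and these 3 did not overlap in either group. Macrophages, which should not make Aqp2, had it at 22.6, 19.0 and 22.8 CPM in sham and 10.4, 18.3 and 19.2 in DOCA-salt mice, and the median type at 19.0. The order of Aqp3 below principal cells (1880 ± 298 CPM in sham, 1040 ± 101 in DOCA-salt mice) was not the same in the groups. In sham mice it was connecting tubule (484 ± 74.9 CPM), type B intercalated (215 ± 15.9 CPM) and type A intercalated cells (112 ± 16.9 CPM), without overlap. In DOCA-salt mice type B cells came next to principal cells (207 ± 19.6 CPM), above connecting tubule (79.7 ± 27.9 CPM) and type A cells (67.7 ± 9.95 CPM), whose ranges overlapped with each other. Urothelial cells were too few to be placed in this order, with 10, 1 and 8 cells in the sham and 30, 31 and 22 in the DOCA-salt mice. Their Aqp3 stood at 227, 668 and 269.5 CPM in sham, the middle value being that of a single cell, and at 32.2, 56.4 and 162 in DOCA-salt mice. Aqp4 was highest in principal cells (668 ± 218 CPM in sham, 1607 ± 344 in DOCA-salt mice), with no other type above 24.1 CPM in a sham mouse or 53.9 in a DOCA-salt mouse, and with the median type at 3.01 over all mice. Avpr2 was lower in steps from principal cells (277 ± 59.8 CPM in sham, 313 ± 26.6 in DOCA-salt mice) to connecting tubule cells (109 ± 20.4 and 45.9 ± 15.5 CPM) and the thick ascending limb (15.3 ± 2.51 and 13.5 ± 3.49 CPM), the salt-absorbing segment that also responds to vasopressin. These 3 did not overlap in either group.

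Aqp6 was highest in type A intercalated cells (2735 ± 238 CPM in sham, 2347 ± 123.3 in DOCA-salt mice), with type B cells next (105 ± 23.7 and 180.0 ± 103 CPM) and no overlap between them in either group. Aqp1 was highest in the thin limb (2883 ± 193 CPM in sham, 3092 ± 335 in DOCA-salt mice) and then in the endothelium (1626 ± 426 and 878 ± 199 CPM), and below these its order was not the same in the groups. In sham mice the proximal tubule (148 ± 13.8 CPM) and cycling cells (123.4 ± 16.0 CPM) came next and overlapped, with injured tubule cells lower (31.9 ± 12.04 CPM). In DOCA-salt mice cycling cells (457 ± 127 CPM) lay above the proximal tubule (159 ± 12.7 CPM) without overlap, and injured tubule cells followed (130.1 ± 12.7 CPM), also without overlap. Aqp11 was highest in the proximal tubule in both groups (54.3 ± 10.4 CPM in sham, 50.3 ± 5.38 in DOCA-salt mice). In sham mice the endothelium (30.7 ± 4.93 CPM), cycling cells (28.9 ± 6.57 CPM) and injured tubule cells (23.5 ± 5.19 CPM) followed, and in DOCA-salt mice injured tubule cells (28.4 ± 5.52 CPM), cycling cells (21.8 ± 3.60 CPM) and the endothelium (19.4 ± 3.52 CPM), each overlapping with its neighbor. Aqp7 was low throughout. In sham mice injured tubule cells (13.5 ± 7.67 CPM), cycling cells (11.8 ± 1.88 CPM) and the proximal tubule (10.3 ± 1.08 CPM) overlapped, and in DOCA-salt mice injured tubule cells (19.6 ± 2.71 CPM) lay above the proximal tubule (12.6 ± 0.325 CPM).

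In principal cells, Aqp2 and Avpr2 showed no change that passed the test, while over the class as a whole Aqp3 fell and Aqp4 rose. Of the 7 genes tested there, 2 were higher and 2 lower, against 8.23% of 10535 genes called. Aqp2 stood at 9136, 6921 and 8508 CPM in the sham mice (mean 8188 ± 1142 SD) and 6881, 8736 and 6247 in the DOCA-salt mice (7288 ± 1294). The groups overlapped, and the highest DOCA-salt mouse was above 2 of the sham mice (log2 change -0.12 ± 0.18 SE, edgeR adjusted p = 0.763, 95% interval -0.51 to 0.28). Its receptor partner Avpr2 stood at 331, 212 and 287 CPM in the sham mice (mean 277 ± 59.8 SD) and 309, 342 and 289 in the DOCA-salt mice (313 ± 26.6), again with overlap (0.23 ± 0.17 SE, edgeR adjusted p = 0.476, 95% interval -0.14 to 0.60).

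The blood-side channels moved in opposite directions in this class. Aqp3 stood at 2221, 1671 and 1746 CPM in the sham mice (mean 1880 ± 298 SD) and 928, 1069 and 1123 in the DOCA-salt mice (1040 ± 101), so that every DOCA-salt mouse was below every sham mouse. It was 1.81-fold lower (log2 change -0.80 ± 0.16 SE, edgeR adjusted p = 0.00891). Without DOCA-salt mouse 1 its adjusted p was 0.0509 (edgeR). Aqp4 stood at 919, 558 and 526 CPM in the sham mice (mean 668 ± 218 SD) and 1453, 2001 and 1367 in the DOCA-salt mice (1607 ± 344), so that every DOCA-salt mouse was above every sham mouse. It was 2.41-fold higher (log2 change 1.32 ± 0.22 SE, edgeR adjusted p = 0.00317). The Aqp4 call held without any 1 of the mice, with log2 changes from 1.12 to 1.62, but it was lost within the larger of 2 clusters that make up these cells.

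At the finer clustering of resolution 2, which like the first used none of the 8 genes, most of the 1004 principal cells fell in 2 clusters with different levels of Aqp4. Cluster 28 of that clustering (586 cells, Aqp4 1551 CPM) held 49.2%, 40.4% and 37.7% of the principal cells in the sham mice and 85.2%, 83.5% and 84.5% in the DOCA-salt mice. Its cluster 38 (359 cells, Aqp4 175 CPM, with Spock3, Mgat4c and Kcnh5 as leading genes) held 90, 119 and 129 cells of the sham mice but 11, 5 and 5 of the DOCA-salt mice. A further 56 cells fell in an unnamed cluster and 3 elsewhere. The class named principal cell is thus a different mixture in the 2 groups. In cluster 28 alone Aqp4 stood at 1639, 1115 and 1181 CPM in the sham mice (mean 1312 ± 286 SD) and 1501, 2060 and 1379 in the DOCA-salt mice (1647 ± 363), with overlap. There its log2 change was 0.38 ± 0.20 SE (edgeR adjusted p = 0.279, 95% interval -0.042 to 0.81). Aqp3 in this cluster stood at 2544, 1945 and 1883 CPM in the sham mice (mean 2124 ± 365 SD) and 943, 1114 and 1132 in the DOCA-salt mice (1063 ± 104), and it was the 1 call among 6 genes tested there (-0.94 ± 0.17 SE, edgeR adjusted p = 0.00485), against 6.84% of 9644 genes. Aqp2 stood at 12724, 9533 and 12026 CPM in sham and 6978, 8731 and 6248 in DOCA-salt mice, without overlap, and was not called (-0.59 ± 0.19 SE, edgeR adjusted p = 0.0782). Avpr2 overlapped between the groups (-0.12 ± 0.18 SE, edgeR adjusted p = 0.745).

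Cluster 38 could not be fitted, since 2 of the DOCA-salt mice had 5 cells each. Its Aqp4 stood at 143, 78.6 and 94.1 CPM in sham and 989, 1298 and 670 in DOCA-salt mice. With a limit of 20% mitochondrial UMIs the cells named principal lay in 2 clusters with Aqp4 at 1507 and 166 CPM, the first of which made up 47.4 ± 4.91% of them in sham and 95.3 ± 5.97% in DOCA-salt mice. The values for principal cells given here and below are those of the whole class unless the cluster is named, and the part of the mixture in them was not tested apart from the fit in cluster 28.

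The ratios of UMIs within the same principal cells do not depend on how many cells were caught, though they do move with the mixture of the 2 clusters. The log2 ratio of Aqp4 to Aqp3 UMIs was -1.53 ± 0.23 SD in sham and 0.61 ± 0.31 in DOCA-salt mice, a difference of 2.14 (on a linear scale 0.346 and 1.53). That of Aqp2 to Aqp3 was 2.12 ± 0.14 SD in sham and 2.80 ± 0.29 in DOCA-salt mice, a difference of 0.67 (on a linear scale 4.36 and 6.96). That of Aqp2 to Avpr2 was 4.90 ± 0.12 SD in sham and 4.53 ± 0.13 in DOCA-salt mice, a difference of -0.37 (on a linear scale 29.9 and 23.1). In none of the 3 did the groups overlap, and each gave an exact two-sided permutation p of 0.1 (0.1 also after Benjamini-Hochberg adjustment), the smallest that 3 against 3 mice allow.

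Aqp11 and Aqp6 were also called in principal cells. The median type had Aqp11 at 5.97 CPM and Aqp6 at 5.68. Aqp11 in both groups and Aqp6 in sham mice lay near these levels, while Aqp6 was above its median type in every DOCA-salt mouse. Aqp11 stood at 10.2, 10.7 and 7.80 CPM in sham and 4.69, 4.39 and 2.86 in DOCA-salt mice. Its log2 change was -1.198 ± 0.34 SE (edgeR adjusted p = 0.0482), and the call was lost without any 1 of the mice and by DESeq2 (adjusted p = 0.176). Aqp6 stood at 7.43, 3.24 and 5.20 CPM in the sham mice (mean 5.29 ± 2.09 SD) and 11.1, 90.8 and 18.8 in the DOCA-salt mice (40.3 ± 43.9). The fit gave Aqp6 a log2 change of 3.01 ± 0.70 SE (edgeR adjusted p = 0.0184), with DOCA-salt mouse 2 far above the rest. Without that mouse its log2 change was 1.54 (edgeR adjusted p = 0.0442), and the call was lost without sham mouse 1 or sham mouse 3 and in cluster 28 of resolution 2 (adjusted p = 0.0723, edgeR). In the same cells the 6 type A intercalated markers summed to 16.2 to 38.5 CPM in sham and 34.0 to 77.1 in DOCA-salt mice and the 5 type B markers to 144 to 247 CPM in sham and 463 to 1055 in DOCA-salt mice. In each list 1 marker was higher in every DOCA-salt mouse than in every sham mouse, and no marker was at 0 in all mice. Their part in the Aqp6 value was not tested.

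Markers of other cells moved in principal cells too. The 5 connecting tubule markers summed to 979 to 1296 CPM in sham and 1641 to 2206 in DOCA-salt mice, the 12 proximal tubule markers to 1228 to 3167 CPM in sham and 827 to 1698 in DOCA-salt mice, the 7 macrophage markers to 5.10 to 11.4 CPM in sham and 26.99 to 65.1 in DOCA-salt mice and the 6 fibroblast markers to 0 to 2.32 CPM in sham and 7.63 to 32.6 in DOCA-salt mice. The 6 injured tubule markers summed to 362 to 606 CPM in sham and 1115 to 1699 in DOCA-salt mice and the 5 monocyte markers to 3.24 to 5.20 CPM in sham and 24.6 to 44.4 in DOCA-salt mice, with Chil3 at 0 in all. Higher in every DOCA-salt mouse were 3 of the 7 macrophage, 3 of the 6 fibroblast, 2 of the 5 monocyte, 2 of the 6 injured tubule and 2 of the 5 connecting tubule markers. Lower in every DOCA-salt mouse were 2 of the 12 proximal tubule markers, 1 injured tubule marker and 1 connecting tubule marker. The part of these cells in the values above was not tested. The 6 principal cell markers summed to 10302 to 12792 CPM in sham and 9401 to 11531 in DOCA-salt mice, with 2 of them lower and 1 higher in every DOCA-salt mouse. Among the 6, the sodium channel subunits averaged 436 ± 137 CPM in sham and 236 ± 45.6 in DOCA-salt mice for Scnn1b and 270 ± 12.7 and 151 ± 15.8 for Scnn1g, and Npnt averaged 825 ± 47.3 and 1112 ± 80.5. With cells of over 2% proximal tubule marker UMIs left out, Aqp3 (-0.80) and Aqp4 (1.32) gave the same log2 changes to 2 decimals.

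**Figure D2:**
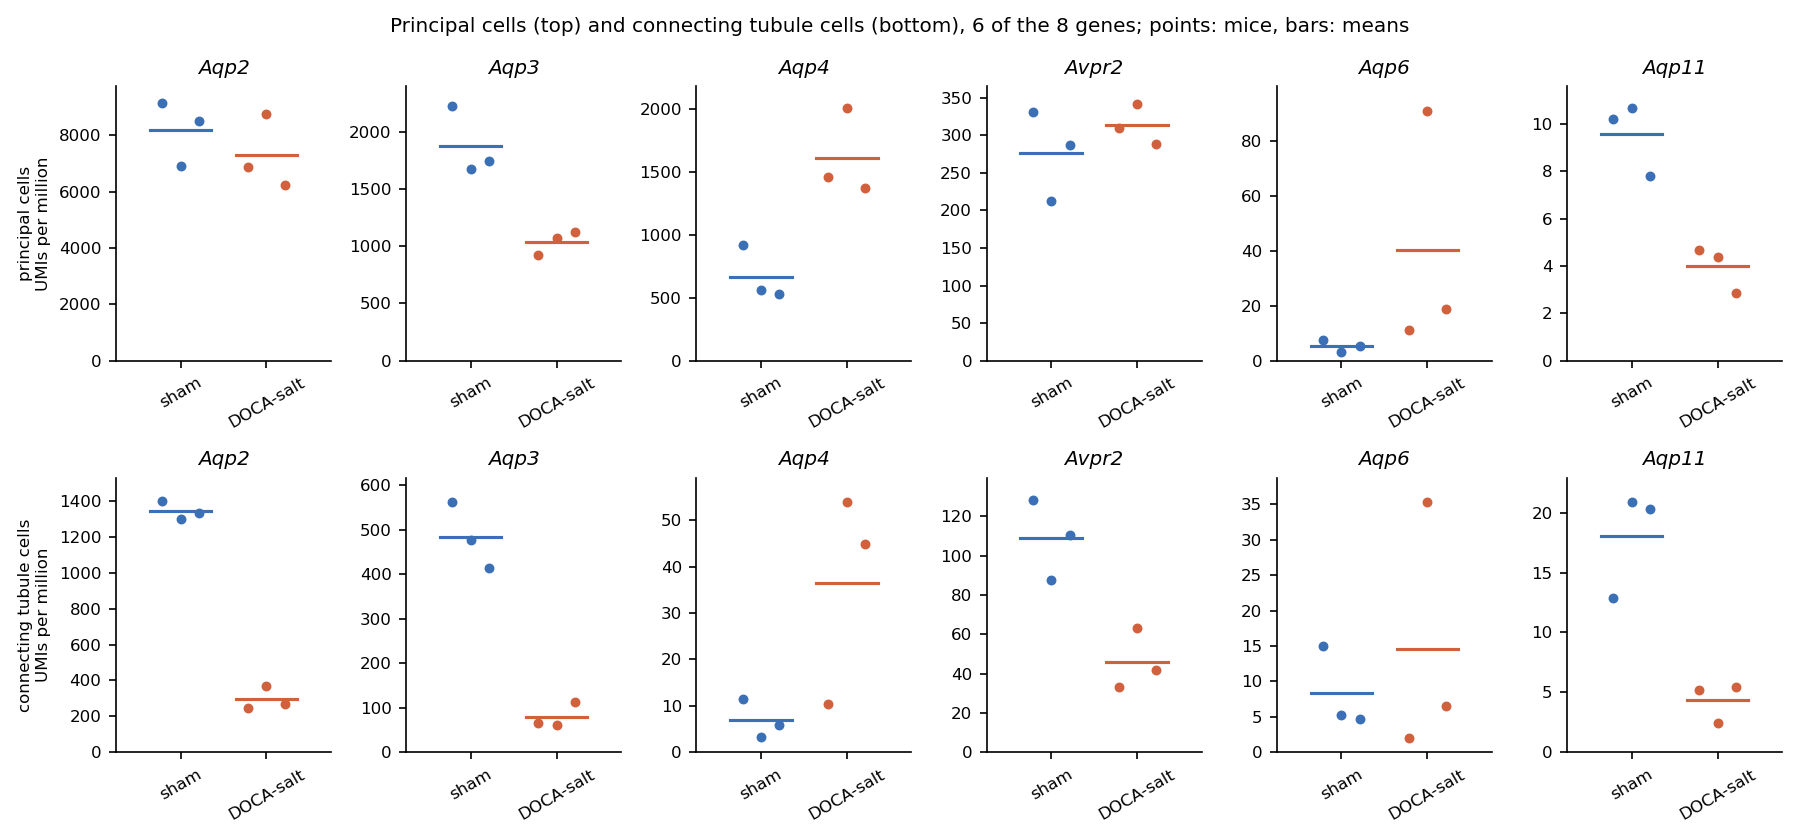
Levels of Aqp2, Aqp3, Aqp4, Avpr2, Aqp6 and Aqp11 in principal cells (top) and connecting tubule cells (bottom), in CPM of those cells (linear axes from 0). Each point is 1 mouse, bars are means of 3 mice. Aqp2 and Avpr2 overlapped in principal cells and were lower in every DOCA-salt mouse in connecting tubule cells, Aqp3 was lower in both, and Aqp4 was higher in every DOCA-salt mouse in principal cells.

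Cells named connecting tubule showed lower Aqp2, Aqp3 and Avpr2. Of 7 genes tested, 4 were lower and 1 was higher, but 23.7% of all 9993 genes were called in these cells. Aqp2 stood at 1402, 1301 and 1337 CPM in the sham mice (mean 1347 ± 51.3 SD) and 245, 372 and 269.8 in the DOCA-salt mice (295 ± 67.2). For Aqp2 the log2 change was -2.37 ± 0.19 SE (edgeR adjusted p = 7.57e-07). The mean was 4.56-fold lower, and the highest DOCA-salt mouse was far below the lowest sham mouse. Aqp3 stood at 563, 476 and 414 CPM in the sham mice (mean 484 ± 74.9 SD) and 66.0, 61.3 and 112 in the DOCA-salt mice (79.7 ± 27.9). The log2 change of Aqp3 was -2.82 ± 0.22 SE (edgeR adjusted p = 7.01e-07). Avpr2 stood at 128, 87.7 and 110.5 CPM in the sham mice (mean 109 ± 20.4 SD) and 32.99, 63.2 and 41.7 in the DOCA-salt mice (45.9 ± 15.5). This was a log2 change of -1.41 ± 0.23 SE (edgeR adjusted p = 0.000507). The groups of Aqp3 and Avpr2 did not overlap either, and Aqp11 fell from 18.1 ± 4.47 CPM in sham to 4.38 ± 1.65 in DOCA-salt mice, a log2 change of -2.27 ± 0.38 SE (edgeR adjusted p = 0.000496). Aqp4 was at 11.5, 3.27 and 5.82 CPM in sham and 10.3, 53.9 and 45.0 in DOCA-salt mice. The Aqp4 log2 change was 2.22 ± 0.55 SE (edgeR adjusted p = 0.00862). DOCA-salt mouse 1 was within the sham range, and without DOCA-salt mouse 2 the adjusted p was 0.0638 (edgeR). The Aqp4 level also depended on which cells had the name. All cells of the class together had Aqp4 at 20.1 CPM. Cells named connecting tubule had it at 5.33 CPM at resolution 2, 4.34 without doublet removal and 3.64 at the 20% mitochondrial limit, reclustered.

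Markers of other cells moved in the connecting tubule cells as well. The 6 injured tubule markers summed to 123.4 to 223 CPM in sham and 785 to 1077 in DOCA-salt mice (3 of 6 higher in every DOCA-salt mouse), the 7 thin limb markers to 103 to 145 and 337 to 466 (2 of 7 higher) the 5 distal convoluted tubule markers to 613 to 844 and 704 to 1136 (2 of 5 higher, 1 lower), and the 5 monocyte markers to 2.87 to 4.07 and 73.1 to 129 (1 of 5 higher, Ly6c2 at 0 in all). At lower sums, 4 of 5 cycling markers (1.31 to 4.65 and 17.3 to 24.6 CPM), 3 of 6 fibroblast markers (0.582 to 1.43 and 14.2 to 20.8 CPM, Lum at 0 in all), 3 of 7 macrophage markers (7.85 to 12.2 and 25.9 to 40.6 CPM), 3 of 5 smooth muscle or pericyte markers (13.6 to 24.4 and 40.8 to 79.0 CPM) and 3 of 5 podocyte markers (24.4 to 34.02 and 58.1 to 67.9 CPM) were also higher in every DOCA-salt mouse. The 12 proximal tubule markers summed to 1628 to 3793 CPM in sham and 883 to 1516 in DOCA-salt mice, 5 of them lower in every DOCA-salt mouse. Their part in the changes of Aqp2, Aqp3, Avpr2, Aqp11 and Aqp4 was not tested.

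With cells over 20% mitochondrial UMIs left out and the names kept, 243 sham and 183 DOCA-salt connecting tubule cells remained, and the log2 changes were -3.07 for Aqp2, -3.63 for Aqp3 and -1.60 for Avpr2. Connecting tubule and principal cells summed together give a value that does not rest on the line between them. It does still rest on the line to the distal convoluted tubule. At the 20% limit, reclustered, 9.88% of the sham and 70.5% of the DOCA-salt connecting tubule cells crossed that line. The fit of the 2 types together used the cells and names of the clustering at resolution 1, not the reclustered ones. In it 14.9% of 11812 genes were called. Of the 8 genes Aqp3 (-1.05 ± 0.19 SE, edgeR adjusted p = 0.00299) and Aqp11 (-1.75 ± 0.26 SE, edgeR adjusted p = 0.000979) were lower and Aqp4 (1.23 ± 0.24 SE, edgeR adjusted p = 0.00574) was higher. Aqp2 (-0.33 ± 0.18 SE, edgeR adjusted p = 0.258) and Avpr2 (-0.081 ± 0.17 SE, edgeR adjusted p = 0.802) were not called.

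The difference between the changes in the 2 cell types was tested in a fit of both types' sums with the mouse as a block, in which 16.6% of 10992 genes were called. The change of Aqp2 was more positive in principal than in connecting tubule cells by 2.26 ± 0.12 SE (edgeR adjusted p = 1.09e-12) and that of Aqp3 by 2.03 ± 0.15 SE (edgeR adjusted p = 5.72e-10). For Aqp4 the difference was -0.82 ± 0.41 SE (edgeR adjusted p = 0.200), and without DOCA-salt mouse 1 it was -1.26 with an adjusted p of 0.00321 (edgeR). In the thick ascending limb Avpr2 stood at 16.8, 12.4 and 16.6 CPM in sham and 14.8, 16.2 and 9.59 in DOCA-salt mice. Its log2 change was -0.17 ± 0.22 SE (edgeR adjusted p = 0.825), where 1.61% of 12164 genes were called. None of the 7 genes tested passed there by edgeR (2 at an unadjusted p below 0.05, 0 by DESeq2). The change of Avpr2 in principal cells minus that in the thick ascending limb was 0.41 ± 0.17 SE (edgeR adjusted p = 0.147), with 8.54% of 11991 genes called.

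**Figure D3:**
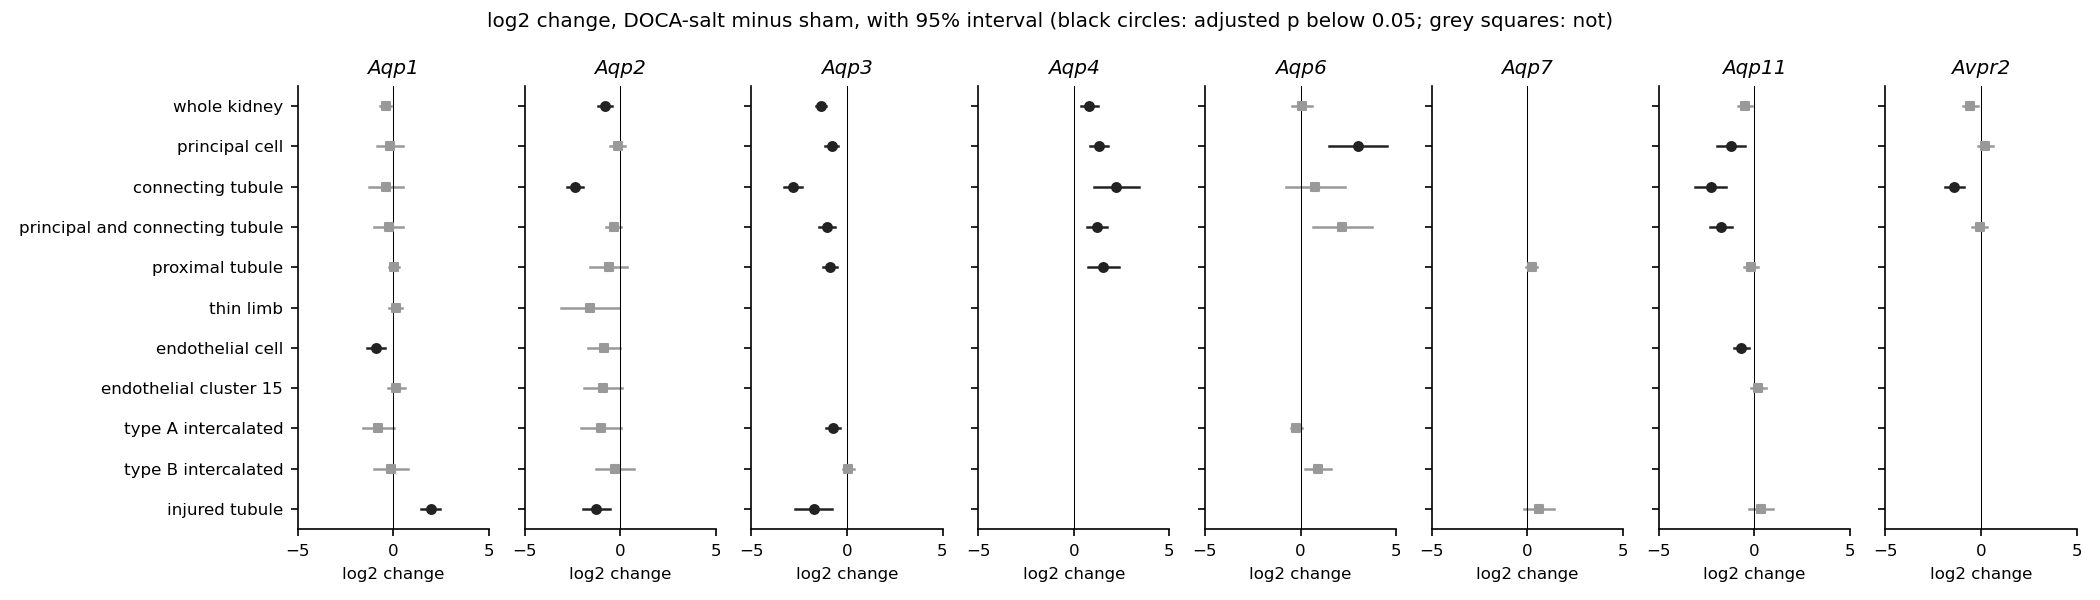
log2 changes (DOCA-salt minus sham) of the 8 genes in whole kidneys and 10 sets of cells, with 95% intervals from edgeR, for genes with a mean of at least 10 CPM or a call. Black circles have an adjusted p below 0.05 and grey squares do not. Aqp3 lay below 0 in all sets drawn except type B intercalated cells, Aqp4 above 0, and Aqp2 and Avpr2 were called in connecting tubule but not in principal cells.

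The share of cells with at least 1 UMI of a gene was compared after every cell was thinned to 1000 UMIs. Among principal cells, Aqp4 was then seen in 40.7%, 28.9% and 29.1% of cells in the sham mice and 68.4%, 72.5% and 62.9% in the DOCA-salt mice. Aqp3 was seen in 84.6%, 77.5% and 78.8% of cells in the sham mice and 55.9%, 57.6% and 59.5% in the DOCA-salt mice. More principal cells thus showed Aqp4 and fewer showed Aqp3 in every DOCA-salt mouse than in every sham mouse (exact two-sided permutation p = 0.1 for each, the smallest possible). The shares of Aqp2 averaged 97.4 ± 0.925% and 94.99 ± 1.38% and those of Avpr2 24.0 ± 4.78% and 27.02 ± 1.47% in sham and DOCA-salt mice, and their groups overlapped. Among connecting tubule cells, the shares averaged 58.0 ± 1.97% and 20.7 ± 1.84% for Aqp2, 34.8 ± 4.86% and 8.30 ± 2.26% for Aqp3 and 9.52 ± 1.01% and 5.23 ± 1.49% for Avpr2, with no overlap for any of these 3 (exact p = 0.1 each). For Aqp4 they averaged 1.89 ± 1.39% and 4.86 ± 2.59%, with overlap. Without thinning, the mean shares in principal cells were 67.6% and 92.96% for Aqp4, 99.8% and 92.8% for Aqp3, 99.8% and 98.1% for Aqp2 and 83.9% and 88.2% for Avpr2.

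Thinned macrophages, which should not make Aqp2, showed it in 2.24 ± 0.353% and 1.72 ± 0.770% of cells, with a median of 3860.5 and 4472 UMIs per cell before thinning against 9303 and 13567 in principal cells. Thinning left out 3 sham and 14 DOCA-salt principal cells, 45 and 36 connecting tubule cells and 20 and 249 macrophages. In the thick ascending limb, thinned the same way, Aqp4 was seen in 0.148 ± 0.0742% and 0.266 ± 0.141% and Aqp3 in 0.609 ± 0.291% and 0.310 ± 0.236% of cells.

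Aqp1 showed no change that passed the test in the thin limb or the proximal tubule and was lower over the endothelium as a whole. In the thin limb it stood at 2777, 3106 and 2767 CPM in the sham mice (mean 2883 ± 193 SD) and 3180, 3374 and 2721 in the DOCA-salt mice (3092 ± 335). The fit gave Aqp1 a log2 change of 0.13 ± 0.15 SE (edgeR adjusted p = 0.836), with a 95% interval of -0.20 to 0.45. The thin limb joined 2 clusters in shares that differed between the groups. Cluster 33 (Aqp1 3633 CPM), led by Fst, made up 23.9%, 17.8% and 15.9% of the thin limb cells in sham and 40.5%, 46.8% and 30.5% in DOCA-salt mice, and cluster 17 (Aqp1 2828 CPM), with Slc14a2 and Corin among its leading genes, made up the rest. Within each cluster the groups overlapped too, with Aqp1 log2 changes of 0.077 ± 0.17 SE in cluster 17 (edgeR adjusted p = 0.951, 95% interval -0.29 to 0.45, 0.454% of 11222 genes called) and -0.014 ± 0.17 SE in cluster 33 (edgeR adjusted p = 0.993, 95% interval -0.36 to 0.34, 0.370% of 7029 genes called). Cluster 17 was itself mixed. At resolution 2 it divided into cluster 33 of that clustering (432 cells, Aqp1 5290 CPM) and its cluster 36 (389 cells, Aqp1 150.5 CPM), which Slc14a2 and Corin led. In the first Aqp1 stood at 5191, 5361 and 5099 CPM in sham and 5657, 5471 and 4781 in DOCA-salt mice, with overlap (0.0092 ± 0.18 SE, edgeR adjusted p = 0.998, 95% interval -0.37 to 0.39, 0.682% of 9818 genes called). In the second Aqp1 stood at 144, 244 and 93.9 CPM in sham and 184, 48.4 and 196 in DOCA-salt mice, also with overlap (-0.17 ± 0.40 SE, edgeR adjusted p = 0.961, 95% interval -1.03 to 0.69, 0.201% of 9439 genes called). By edgeR none of the 5 genes tested in the thin limb were called (2 at an unadjusted p below 0.05, 1 by DESeq2), against 0.775% of 11613 genes. Thin limb cells themselves fell from 2.57 ± 0.324% to 1.54 ± 0.414% of the cells (log2 change -0.73 ± 0.26 SE, adjusted p = 0.0154, edgeR), a call that was lost without sham mouse 2, DOCA-salt mouse 2 or DOCA-salt mouse 3. Across the proximal tubule Aqp1 stood at 137, 163 and 143 CPM in the sham mice (mean 148 ± 13.8 SD) and 167, 144 and 166 in the DOCA-salt mice (159 ± 12.7). For Aqp1 the log2 change was 0.037 ± 0.12 SE (edgeR adjusted p = 0.885), with a 95% interval of -0.23 to 0.31.

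Within the proximal tubule the cells named S3 (cluster 32), after the last segment, had Aqp1 at 438, 584 and 606 CPM in the sham mice (mean 543 ± 91.3 SD) and 409, 388 and 457 in the DOCA-salt mice (418 ± 35.8). The log2 change of Aqp1 was -0.47 ± 0.21 SE (edgeR adjusted p = 0.579). In cells named S2 it averaged 183 ± 16.3 CPM in sham and 185 ± 9.15 in DOCA-salt mice. In cells named S1 it averaged 84.5 ± 10.6 CPM in sham and 108 ± 5.43 in DOCA-salt mice. The mean was thus higher from S1 to S2 to S3, as named here, in both groups. These names were not firm. Cluster 0 (8042 cells, Aqp1 128 CPM) and cluster 9 (1981 cells, Aqp1 265 CPM) had no segment name. The S3 marker Slc7a13 was among the leading genes of cluster 9. At the 20% mitochondrial limit the name S3 went to a cluster of 2547 cells (Aqp1 171 CPM), led by Vmn1r18. S3 cells numbered 27, 19 and 19 in sham and 109, 84 and 63 in DOCA-salt mice, and 0.386% of 5179 genes were called there. Of 5 genes tested in S3 none were called by edgeR (2 at an unadjusted p below 0.05, 0 by DESeq2).

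Endothelial cells had Aqp1 at 2087, 1248 and 1543 CPM in the sham mice (mean 1626 ± 426 SD) and 1024, 958 and 652 in the DOCA-salt mice (878 ± 199). This was a log2 change of -0.89 ± 0.21 SE (edgeR adjusted p = 0.0252). They had Aqp11 at 36.4, 28.3 and 27.5 CPM in sham and 23.5, 17.3 and 17.5 in DOCA-salt mice. The Aqp11 log2 change was -0.68 ± 0.18 SE (edgeR adjusted p = 0.0363). Both genes were lower in every DOCA-salt mouse. They were 2 of 6 genes tested there, against 9.54% of 12632 genes. Both calls were lost without sham mouse 1, sham mouse 3, DOCA-salt mouse 2 or DOCA-salt mouse 3, with adjusted p of 0.0533 to 0.107 for Aqp1 and 0.0891 to 0.162 for Aqp11 over these 4 (edgeR). Markers of other Aqp1-bearing cells were lower there as well. The 7 thin limb markers summed in the endothelium to 379 to 444 CPM in sham and 108 to 150 in DOCA-salt mice, 2 of them lower and 1 higher in every DOCA-salt mouse, and the 12 proximal tubule markers to 2028 to 3974 and 812 to 1963, 5 of them lower. Their part in the Aqp1 and Aqp11 values was not tested.

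Nearly all of the endothelial Aqp1 lay in 1 cluster, cluster 15, which carried arterial and descending vasa recta markers. It held 16441 of the 16724 endothelial Aqp1 UMIs in sham and 14614 of 14978 in DOCA-salt mice. In that cluster alone Aqp1 stood at 3791, 2316 and 2574 CPM in the sham mice (mean 2894 ± 788 SD) and 3221, 3916 and 2622 in the DOCA-salt mice (3253 ± 647). Its log2 change was 0.15 ± 0.20 SE (edgeR adjusted p = 0.864). Aqp11 there had a log2 change of 0.22 ± 0.18 SE (edgeR adjusted p = 0.747). By edgeR none of the 3 genes tested in it were called (0 at an unadjusted p below 0.05, 0 by DESeq2), against 0.196% of 10199 genes. The cluster made up 34.8 ± 2.58% of the endothelial cells in sham and 17.96 ± 4.25% in DOCA-salt mice, with no overlap. Cluster 15 was mixed as well. At resolution 2 all but 17 of its cells fell in cluster 30 of that clustering (477 cells, Aqp1 6580 CPM), led by the urea transporter Slc14a1, or its cluster 31 (441 cells, Aqp1 108 CPM). In the first Aqp1 stood at 6430, 6422 and 6484 CPM in sham and 7124, 7009 and 5887 in DOCA-salt mice, with overlap (0.051 ± 0.16 SE, edgeR adjusted p = 0.968, 95% interval -0.29 to 0.39, 0.211% of 8062 genes called). It made up 18.3%, 14.8% and 13.9% of the cells named endothelial at resolution 2 in sham and 11.9%, 7.81% and 7.44% in DOCA-salt mice, without overlap. In the second Aqp1 stood at 42.8, 32.5 and 136 CPM in sham and 280.2, 78.1 and 71.4 in DOCA-salt mice (0.94 ± 0.49 SE, edgeR adjusted p = 0.493, 0.890% of 8538 genes called). In capillary endothelium Aqp1 was low, at 22.8, 53.4 and 69.7 CPM in sham and 17.9, 21.9 and 16.3 in DOCA-salt mice. The median type had Aqp1 at 23.2 CPM, so that most of these values were near or below it. The fit gave Aqp1 a log2 change of -1.33 ± 0.31 SE (edgeR adjusted p = 0.0192), where 7.43% of 10758 genes were called.

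The change of Aqp1 in the endothelium minus that in the proximal tubule was -0.92 ± 0.22 SE (edgeR adjusted p = 0.0201), with 9.05% of 17102 genes called in that test. Minus that in the thin limb it was -0.97 ± 0.17 SE (edgeR adjusted p = 0.00238), with 6.40% of 13439 genes called. The change in the thin limb minus that in the proximal tubule was 0.061 ± 0.15 SE (edgeR adjusted p = 0.894), with 5.03% of 16568 genes called.

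Aqp1 was higher in DOCA-salt mice in injured tubule cells and in the class of cycling cells. Injured tubule cells, named from Havcr1, Vcam1 and other injury markers, numbered 94 in the sham and 839 in the DOCA-salt mice and had Aqp1 at 24.2, 25.7 and 45.7 CPM in the sham mice (mean 31.9 ± 12.04 SD) and 115, 138.1 and 137 in the DOCA-salt mice (130.1 ± 12.7). For Aqp1 the log2 change was 1.95 ± 0.23 SE (edgeR adjusted p = 1.93e-05). The 12 proximal tubule markers summed in them to 4425 to 6165 CPM in sham and 7666 to 8432 in DOCA-salt mice, 9 of the 12 being higher and 1 lower in every DOCA-salt mouse. The 7 thin limb markers summed to 968 to 1547 CPM in sham and 503 to 605 in DOCA-salt mice (2 higher, 1 lower), the 5 distal convoluted tubule markers to 582 to 686 and 175 to 221 (2 lower) and the 7 macrophage markers to 145 to 157 and 46.7 to 52.8 (4 higher, 1 lower). The part of these cells in the values here was not tested. Aqp2 (-1.24 ± 0.33 SE, edgeR adjusted p = 0.0176) and Aqp3 (-1.74 ± 0.46 SE, edgeR adjusted p = 0.0167) were lower there. Aqp2 averaged 27.2 ± 9.88 CPM in sham and 10.9 ± 2.26 in DOCA-salt mice in these cells and 21.5 ± 2.15 CPM in sham and 16.0 ± 4.86 in DOCA-salt mice in macrophages. Both calls were lost without sham mouse 2 or sham mouse 3. In these cells 12.7% of 11390 genes were called. Cycling cells, marked by Mki67 and Top2a and of mixed origin, had Aqp1 at 114, 114 and 142 CPM in the sham mice (mean 123.4 ± 16.0 SD) and 311, 527 and 534 in the DOCA-salt mice (457 ± 127). The log2 change of Aqp1 was 1.72 ± 0.26 SE (edgeR adjusted p = 0.0152), the 1 call among 8 genes, against 4.66% of 10475 genes. The class joined 2 clusters that were not equally present. Cluster 37 (Aqp1 1144 CPM) held 0, 0 and 3 cells of the sham mice and 30, 35 and 26 of the DOCA-salt mice. In cluster 27 (Aqp1 136 CPM), the other one, Aqp1 stood at 114, 114 and 65.1 CPM in sham and 74.3, 226 and 169.7 in DOCA-salt mice, with overlap. There the Aqp1 log2 change was 0.53 ± 0.37 SE (edgeR adjusted p = 0.628), against 0.700% of 9147 genes called, so that the call of the class was lost without cluster 37. It was also lost without sham mouse 1, sham mouse 2, DOCA-salt mouse 2 or DOCA-salt mouse 3 (adjusted p of 0.0616 to 0.0981, edgeR).

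**Figure D4:**
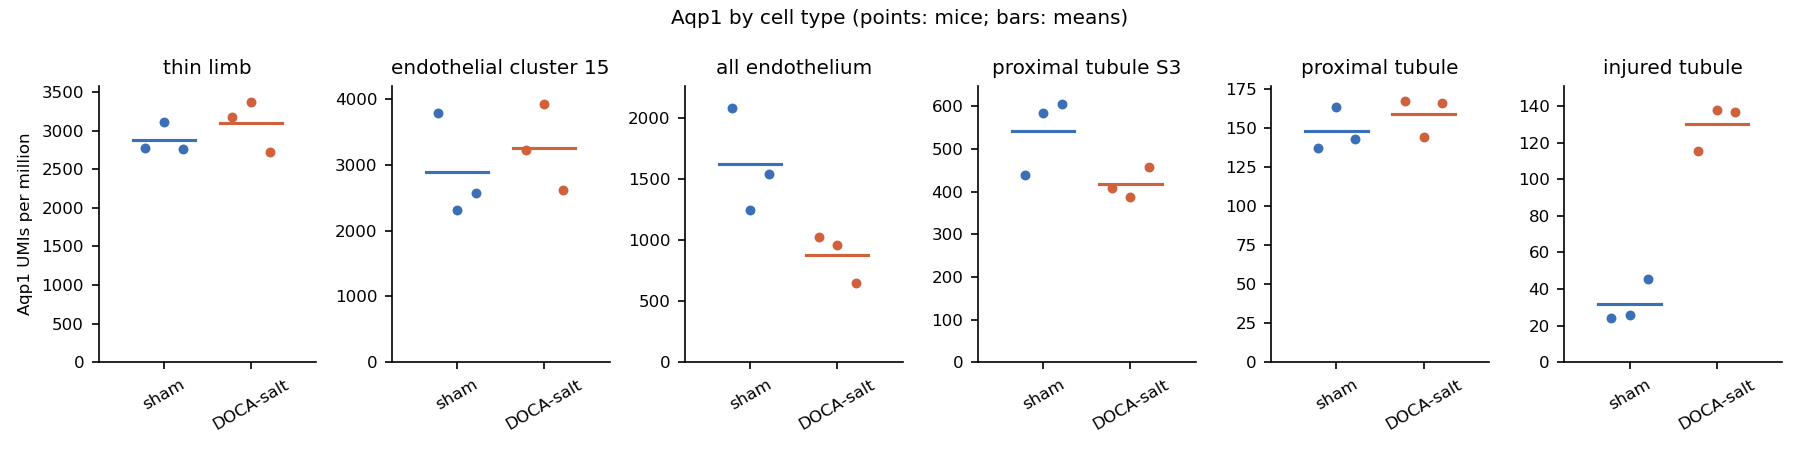
Aqp1 levels in 6 sets of cells, in CPM of those cells (linear axes from 0). Each point is 1 mouse, bars are means of 3 mice. The groups overlapped in the thin limb, in endothelial cluster 15 and in the proximal tubule, Aqp1 was lower in every DOCA-salt mouse over all endothelium, and it was higher in every DOCA-salt mouse in injured tubule cells.

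Aqp6 stood in type A intercalated cells at 2956, 2768 and 2483 CPM in the sham mice (mean 2735 ± 238 SD) and 2400, 2206 and 2435 in the DOCA-salt mice (2347 ± 123.3). This was a log2 change of -0.22 ± 0.14 SE (edgeR adjusted p = 0.591). The groups did not overlap but lay close, and the change was not called. It depended on the limit on mitochondrial UMIs, which type A cells often exceed, since 102 of 350 sham and 117 of 415 DOCA-salt cells were at or below 20%. In those cells, names kept, Aqp6 stood at 3581, 3564 and 3028 CPM in sham and 1883, 1292 and 1438 in DOCA-salt mice (log2 change -1.21, edgeR adjusted p = 0.000362), and with the cells clustered again the log2 change was -0.67 (edgeR adjusted p = 0.0147). The cells named type A after that clustering were a different set, 486 in 2 clusters, the larger of which (381 cells) held Aqp2 at 903 and Avpr2 at 52.9 CPM, against 53.6 and 5.59 in the type A cells used elsewhere. The cause of this dependence was not tested.

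Cluster 28, with 386 cells, leading genes of both intercalated types and no name, held Aqp6 at 1036, 641 and 528 CPM in sham and 759.7, 1089 and 1784 in DOCA-salt mice (0.70 ± 0.30 SE, adjusted p = 0.269, edgeR). All intercalated cells with this cluster gave a log2 change of 0.32 (edgeR adjusted p = 0.327), opposite in sign to type A cells alone. Type B intercalated cells had Aqp6 at 123.3, 78.0 and 113 CPM in sham and 162, 87.0 and 291 in DOCA-salt mice. The Aqp6 log2 change was 0.90 ± 0.32 SE (edgeR adjusted p = 0.115). They had Aqp3 at 229, 217 and 198 CPM in sham and 222, 185 and 214 in DOCA-salt mice, with overlap (0.075 ± 0.13 SE, edgeR adjusted p = 0.784). By edgeR none of the 4 genes tested in type B cells were called (1 at an unadjusted p below 0.05, 0 by DESeq2), against 6.12% of 9734 genes. The 1 call among 6 genes in type A cells was Aqp3, at 131, 104 and 100.2 CPM in sham and 73.0, 56.2 and 73.8 in DOCA-salt mice. Its log2 change was -0.73 ± 0.16 SE (edgeR adjusted p = 0.0343), against 1.43% of 9988 genes. It was lost without 5 of the 6 mice in turn, and held without sham mouse 2. In type A cells the 6 principal cell markers summed to 488 to 636 CPM in sham and 372 to 529 in DOCA-salt mice (1 of 6 lower in every DOCA-salt mouse) and the 5 connecting tubule markers to 789 to 1183 and 1335 to 1895 (2 of 5 higher). The 12 proximal tubule markers summed to 1169 to 2535 and 751 to 1175 CPM (3 lower), the 7 thick ascending limb markers to 271 to 579 and 165 to 199.7 CPM (3 lower) and the 6 markers of type A cells themselves to 4045 to 4284 and 3684 to 4239 CPM (2 lower). At lower sums, 2 of 6 injured tubule markers (6.84 to 11.3 and 23.7 to 48.0 CPM) and 4 of 6 fibroblast markers (0 to 1.47 and 10.9 to 15.3 CPM) were higher in every DOCA-salt mouse. Their part in the Aqp3 and Aqp6 values was not tested.

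Aqp7 and Aqp11 showed no change that passed the test in the proximal tubule. Aqp11 stood at 45.5, 65.7 and 51.5 CPM in the sham mice (mean 54.3 ± 10.4 SD) and 55.4, 44.7 and 50.9 in the DOCA-salt mice (50.3 ± 5.38). The fit gave Aqp11 a log2 change of -0.18 ± 0.16 SE (edgeR adjusted p = 0.543), and its groups overlapped. Aqp7 stood at 9.47, 11.5 and 9.90 CPM in the sham mice (mean 10.3 ± 1.08 SD) and 12.2, 12.6 and 12.9 in the DOCA-salt mice (12.6 ± 0.325). For Aqp7 the log2 change was 0.22 ± 0.12 SE (edgeR adjusted p = 0.322), slightly higher in every DOCA-salt mouse. In S3 cells Aqp7 was at 26.3, 28.3 and 79.0 CPM in sham and 43.2, 47.3 and 61.1 in DOCA-salt mice. The log2 change of Aqp7 was 0.14 ± 0.38 SE (edgeR adjusted p = 0.982), next to means of 12.4 ± 1.40 CPM in sham and 13.3 ± 0.826 in DOCA-salt mice for S1 and 7.65 ± 0.405 CPM in sham and 9.49 ± 1.198 in DOCA-salt mice for S2. Cells named S3, the 321 cells of cluster 32, made up 0.365 ± 0.0573% of proximal tubule cells in sham and 1.70 ± 0.494% in DOCA-salt mice, a share that was not tested. This is the share of that cluster and not of the whole segment. Over all proximal tubule cells the S3 marker Slc7a13 averaged 191 ± 12.9 CPM in sham and 98.6 ± 39.3 in DOCA-salt mice. Cyp7b1, another S3 marker, averaged 5.39 ± 2.12 CPM in sham and 14.6 ± 1.02 in DOCA-salt mice. The share of Aqp7 UMIs that lay in injured tubule cells went from 1.07% to 16.0%, while its level there stood at 20.2, 5.13 and 15.2 CPM in sham and 21.4, 16.5 and 21.0 in DOCA-salt mice. This was a log2 change of 0.63 ± 0.37 SE (edgeR adjusted p = 0.331).

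The 2 calls among the 8 genes in the proximal tubule were Aqp3 and Aqp4, both at low levels, against 6.24% of 16110 genes. Aqp3 stood at 19.8, 19.5 and 26.1 CPM in the sham mice (mean 21.8 ± 3.74 SD) and 13.7, 10.9 and 12.7 in the DOCA-salt mice (12.4 ± 1.43). The Aqp3 log2 change was -0.88 ± 0.16 SE (edgeR adjusted p = 0.0161). Aqp4 stood at 1.19, 0.670 and 1.33 CPM in sham and 1.77, 4.07 and 4.02 in DOCA-salt mice. Its log2 change was 1.55 ± 0.36 SE (edgeR adjusted p = 0.0380). The Aqp4 level of the median type was 3.01. In S3 cells Aqp4 stood at 16.5, 23.5 and 36.9 CPM in sham and 28.1, 69.6 and 80.3 in DOCA-salt mice. Without DOCA-salt mouse 2 or 3 the Aqp3 call was lost, and without sham mouse 1, sham mouse 3, DOCA-salt mouse 2 or DOCA-salt mouse 3 the Aqp4 call was lost. Markers of other cells moved in the proximal tubule as well. The 6 principal cell markers summed to 94.5 to 107 CPM in sham and 132 to 159 in DOCA-salt mice (1 of 6 higher in every DOCA-salt mouse) and the 5 connecting tubule markers to 149.6 to 487 and 111 to 186 (1 of 5 lower). All 6 injured tubule markers (51.99 to 58.0 and 93.5 to 135 CPM) and all 6 fibroblast markers (0.402 to 2.34 and 12.5 to 22.8 CPM) were higher in every DOCA-salt mouse, as were 5 of 10 endothelial markers (11.8 to 23.1 and 26.2 to 42.3 CPM) and 5 of 7 macrophage markers (41.0 to 67.9 and 68.9 to 82.4 CPM). Their part in the Aqp3 and Aqp4 values was not tested.

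Genes that act with the channels and the receptor were examined as lists, with all adjusted p from edgeR. In whole kidneys, signaling below the V2 receptor had 3 of 19 genes higher, AQP2 trafficking and turnover 1 of 21 higher, transcription factors of principal cells 1 of 12 lower, and osmolyte and urea handling 1 higher and 1 lower of 9, where 11.5% of all genes were higher and 5.72% lower. In connecting tubule cells the 4 lists had 2 higher and 1 lower of 16, 2 higher and 2 lower of 21, 4 lower of 10 and 1 higher of 7, where 12% of all genes were higher and 11.7% lower. The last list holds transporters and an enzyme of osmolytes and urea, and with them the heat shock genes Hspa1b and Hspa4l and the kinase Sgk1. In principal cells 6 of its 8 genes tested were higher and none were lower, with a median log2 change of 1.26 against -0.006 over all genes tested, of which 4.56% were higher. In cluster 28 of resolution 2 alone 3 of the 8 were higher, Slc5a3 (1.44 ± 0.28 SE, adjusted p = 0.00707), Hspa1b (0.87 ± 0.18 SE, adjusted p = 0.0124) and Slc6a6 (0.65 ± 0.17 SE, adjusted p = 0.0285), where 3.59% of all genes were higher. The values that follow are of the whole class. Slc5a3, the myo-inositol transporter, stood at 15.3, 20.9 and 22.9 CPM in sham and 65.7, 58.1 and 52.0 in DOCA-salt mice. The fit gave Slc5a3 a log2 change of 1.63 ± 0.19 SE (adjusted p = 0.000255). Also higher were Hspa1b, a heat shock protein (1.24 ± 0.19 SE, adjusted p = 0.00144), Akr1b3, the aldose reductase that makes sorbitol (1.27 ± 0.27 SE, adjusted p = 0.0120), and Slc6a12, the betaine transporter (1.81 ± 0.48 SE, adjusted p = 0.0337). Sgk1, a kinase induced by mineralocorticoids and by salt, was also among the 6 (0.77 ± 0.20 SE, adjusted p = 0.0363). The last of the 6, Slc14a2, the urea transporter of the inner medullary collecting duct and thin limb, stood at 27.4, 140.4 and 20.8 CPM in sham and 86.8, 839.8 and 276 in DOCA-salt mice. For Slc14a2 the log2 change was 2.74 ± 0.73 SE (adjusted p = 0.0363), with DOCA-salt mouse 2 highest and sham mouse 2 above DOCA-salt mouse 1. Slc6a6, the taurine transporter (0.48 ± 0.15 SE, adjusted p = 0.0799), and Hspa4l (0.35 ± 0.16 SE, adjusted p = 0.206) were not called. Nfat5, the transcription factor that drives many of these genes under high tonicity, stood at 504, 558 and 491 CPM in sham and 400.1, 412 and 482 in DOCA-salt mice. The log2 change of Nfat5 was -0.21 ± 0.14 SE (adjusted p = 0.412).

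Of all genes tested in principal cells 8.23% were called. Signaling below the V2 receptor gave no calls there by edgeR, with 17 genes tested (3 at an unadjusted p below 0.05, 0 by DESeq2). Among them were Gnas, which encodes the stimulatory G protein (-0.091 ± 0.17 SE, adjusted p = 0.810), and Adcy6, an adenylyl cyclase of these cells (0.62 ± 0.21 SE, adjusted p = 0.0917). AQP2 trafficking and turnover gave none of 21 by edgeR (3 at an unadjusted p below 0.05, 0 by DESeq2). Of 11 transcription factors of principal cells tested, Elf3 was higher, at 203, 275 and 237 CPM in sham and 413, 319 and 404 in DOCA-salt mice. This was a log2 change of 0.72 ± 0.16 SE (adjusted p = 0.0128), and Ehf was lower, at 451, 464 and 403 CPM in sham and 302, 249 and 252 in DOCA-salt mice. The Ehf log2 change was -0.66 ± 0.14 SE (adjusted p = 0.00943). Both are Ets factors of epithelia. In cluster 28 of resolution 2 Elf3 was higher (0.82 ± 0.16 SE, adjusted p = 0.00668), Ehf was not called (-0.49 ± 0.15 SE, adjusted p = 0.0591), and Adcy6 was higher (0.82 ± 0.23 SE, adjusted p = 0.0439). Of 21 genes of AQP2 trafficking and turnover 1 was also higher in that cluster, where 3.59% of all genes were higher.

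Ehf was also lower in whole kidneys (-0.87 ± 0.11 SE, adjusted p = 0.00170) and in connecting tubule cells (-0.76 ± 0.14 SE, adjusted p = 0.00140). Of the listed genes with the smallest adjusted p in whole kidneys, the others were Arrb2, a beta-arrestin (1.06 ± 0.13 SE, adjusted p = 0.00163), Pde4a, a phosphodiesterase that breaks down cAMP (1.08 ± 0.16 SE, adjusted p = 0.00333), and Adcy3, an adenylyl cyclase (1.46 ± 0.23 SE, adjusted p = 0.00454). In connecting tubule cells they were Akap13, an anchor of protein kinase A (1.01 ± 0.15 SE, adjusted p = 0.000253), Sipa1l1 (1.07 ± 0.18 SE, adjusted p = 0.000557) and Ezr, the membrane linker ezrin (-0.68 ± 0.15 SE, adjusted p = 0.00352). In the endothelium 4.94% of all genes were higher and 4.6% lower. The 4 lists had 3 higher and 1 lower of 19, none of 21 (6 at an unadjusted p below 0.05 by edgeR, 0 by DESeq2), 1 lower of 8 and 1 higher and 1 lower of 7 there. The smallest adjusted p were those of Pde4b (1.33 ± 0.15 SE, adjusted p = 0.000827), Gata3 (-2.18 ± 0.47 SE, adjusted p = 0.0161), Prkar2b (-0.81 ± 0.19 SE, adjusted p = 0.0212) and Pde4a (0.69 ± 0.17 SE, adjusted p = 0.0258). In the proximal tubule, where 4.37% of all genes were higher, 2 of 18 and 2 of 21 on the first 2 lists were higher, which were Sipa1l1 (0.63 ± 0.10 SE, adjusted p = 0.0114), Adcy6 (0.61 ± 0.13 SE, adjusted p = 0.0280), Myo5b (0.45 ± 0.10 SE, adjusted p = 0.0330) and Adcy9 (0.38 ± 0.089 SE, adjusted p = 0.0404).

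In injured tubule cells the 4 lists had 1 higher and 4 lower of 16, 2 higher and 2 lower of 21, 1 lower of 7 and 1 lower of 6, next to the 12.7% of all genes called there. The smallest adjusted p were those of Ehf (-2.76 ± 0.34 SE, adjusted p = 3.01e-05), Pde4b (-1.02 ± 0.17 SE, adjusted p = 0.000668), Slc6a6 (-0.79 ± 0.17 SE, adjusted p = 0.00507) and Sipa1l1 (0.71 ± 0.17 SE, adjusted p = 0.00969). In cycling cells, where 4.66% of all genes were called, the calls were 1 of 7 genes for osmolyte and urea handling, Hspa1b (2.06 ± 0.37 SE, adjusted p = 0.0228), and 2 of 16 for V2 receptor signaling, Pde4b (1.30 ± 0.28 SE, adjusted p = 0.0377) and Gnas (1.04 ± 0.24 SE, adjusted p = 0.0470), in a class whose 2 clusters were not equally present. In type B intercalated cells, where 6.12% of all genes were called, the 4 lists had 1 higher of 16, 1 lower of 21, 1 lower of 10 and 1 lower of 6, and the smallest adjusted p were those of Sgk1 (-1.50 ± 0.22 SE, adjusted p = 0.00201), Avpr1a, the V1a vasopressin receptor (0.72 ± 0.13 SE, adjusted p = 0.00659), Pde4a (1.11 ± 0.24 SE, adjusted p = 0.0163) and Ehf (-0.85 ± 0.20 SE, adjusted p = 0.0229).

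In type A intercalated cells, where 1.43% of all genes were called, the calls were 2 of 6 genes for osmolyte and urea handling and the 1 gene tested of the other vasopressin and oxytocin receptors. These were Slc5a3 (0.89 ± 0.16 SE, adjusted p = 0.00831), Sgk1, which was lower here (-0.92 ± 0.17 SE, adjusted p = 0.0123), and Avpr1a, at 87.6, 94.6 and 106 CPM in sham and 158, 136 and 161 in DOCA-salt mice. Its log2 change was 0.67 ± 0.14 SE (adjusted p = 0.0274). Sgk1 was thus lower in both intercalated types and higher in principal cells, a difference that was not itself tested. Among the other aquaporins, Aqp9 was the 1 call of 2 tested in whole kidneys, at 0.0442, 0.0589 and 0.0154 CPM in sham and 0.251, 0.145 and 0.238 in DOCA-salt mice. The fit gave Aqp9 a log2 change of 2.23 ± 0.47 SE (adjusted p = 0.0153), and Aqp8 was not called (-0.79 ± 0.44 SE, adjusted p = 0.267). Of the other vasopressin and oxytocin receptors, 2 were tested in whole kidneys and neither was called (0 at an unadjusted p below 0.05, 0 by DESeq2).

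The genes whose pattern across the 20 named types was most like each of the 8 were found by the correlation of log2 levels over 12041 genes with at least 20 CPM in some type. The points share the same 6 libraries, and types with few cells count as much as those with many. For Aqp2 these were Gm20485 (r = 0.966), Kcnh5 (0.963) and Hsd11b2 (0.951), the enzyme that keeps glucocorticoids from the mineralocorticoid receptor and one of the principal cell markers. Gm20485 also led for Avpr2 (0.881), with Pappa (0.870) and Wnt9b (0.864). Gm20485 (0.926) and Wnt9b (0.919) were also among those most like Aqp4. For Aqp3 they were Trpv6, a calcium channel (0.877), Spire2 (0.873) and Slc9a4, a sodium-proton exchanger (0.865). For Aqp6 they were Slc4a1, the anion exchanger of type A cells and one of their markers (0.977), Cpsf4l (0.952) and Dmrt2, another marker (0.952). For Aqp1 they were Afap1l1 (0.938), Apln, the peptide apelin (0.881), and Ccno (0.813), and for Aqp11 Enpp6 (0.839), Vps29 (0.820) and C2cd2l (0.817). Aqp7 was below 20 CPM in every type and was not compared.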

How the data were processed

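Single-cell RNA of kidneys from 3 sham and 3 DOCA-salt mice was analyzed, 1 library per mouse, so n is mice and p-values measure the spread between them. Per the labels, the authors aligned the 10x 3′ reads to GRCm39 with Cell Ranger 9.0.0, whereas the deposited file headers name 8.0.1, and the annotation release is not given in the sources used here. The deposited values are raw UMI counts per gene and barcode, limited to the barcodes called as cells. Whether intronic reads were counted is not given, and the authors' later steps named in the labels (Seurat 4.0.0, R 4.0.3) left no deposited annotation here.

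Barcodes needed 170 genes and 500 UMIs or more, with mitochondrial UMIs of up to 50% and hemoglobin UMIs of up to 5%, and Scrublet's highest scores were removed at 0.8% per 1000 barcodes, in place of the authors' DoubletFinder. Cells were scaled to 10000 UMIs and log-transformed, and 2000 variable genes without the 8 genes or the listed genes gave 30 principal components, 20 neighbors and 41 Leiden clusters at resolution 1 (scanpy 1.11.5, igraph 0.11.9, Python 3.11.15). Clusters were not integrated across libraries. They were named from marker lists, and 4 clusters remained unnamed. A type entered a test where every mouse had at least 10 cells.

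UMIs were summed per mouse and type and tested with edgeR 4.0.16 (quasi-likelihood, TMM, R 4.3.3), and p-values were adjusted (Benjamini-Hochberg) over every gene of a fit, with calls below 0.05. Differences between types were tested as interactions with the mouse as a block. DESeq2 1.42.0 and the other settings of the closing section were alternatives. Shares of cells used thinning to 1000 UMIs and exact permutation tests. The scripts were checked on simulated data. The rules for named genes were all listed genes called in principal cells, the 4 with the smallest adjusted p elsewhere (named where called) and the 3 genes most like each of the 8. Values given beyond these rules, and the fits within single clusters, were chosen after the data were seen. The 8 genes and the lists were chosen with earlier results of these data known. Free RNA from lysed cells was not removed. One of the genes whose pattern was most like that of Aqp4 is not reported here.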

Additional observations from a re-analysis of the deposited data

Results flagged for a closer look

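Among 7 tests of a change in 1 cell type against the change in another, 4 passed. The share of all genes called in the fits of these tests ran from 5.03% to 16.6%. Aqp2 and Aqp3 changed differently in principal and connecting tubule cells, by 2.26 and 2.03 on the log2 scale (edgeR adjusted p = 1.09e-12 and 5.72e-10). Both genes were lower in the cells named connecting tubule, where in every DOCA-salt mouse 3 of 5 connecting tubule markers were lower and 1 was higher (Slc8a1, from 6849 to 12486 CPM), and 4 of 6 principal cell markers were lower. The cells named principal at resolution 2 in turn held 2 clusters in different shares, 1 of which made up 43.9 ± 6.35% of them in sham and 93.96 ± 2.75% in DOCA-salt mice. The part of these markers and shares in the differences was not tested.

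The change of Aqp1 in the endothelium differed from that in the proximal tubule by -0.92 and from that in the thin limb by -0.97 (edgeR adjusted p = 0.0201 and 0.00238). The first was lost without sham mouse 1 (adjusted p = 0.0819), sham mouse 3 (0.0600) or DOCA-salt mouse 3 (0.0773, edgeR). In endothelial cluster 15 alone the log2 change of Aqp1 was 0.15, and this cluster was a smaller part of the endothelium in every DOCA-salt mouse. In cluster 30 of resolution 2, which had the higher Aqp1 of the 2 clusters it divided into, the log2 change was 0.051.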

How the results depend on the processing

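Among the called genes, Aqp3 in whole kidneys, Aqp1 in injured tubule cells and Aqp3 and Aqp11 in connecting tubule cells stayed called in every alternative run for them. Aqp2 (-0.33) and Avpr2 (-0.081) in connecting tubule cells stayed called in all but 1, with principal cells added. Aqp4 in principal cells stayed called in all but 1, cluster 28 of resolution 2 alone (0.38). For capillary endothelium no alternatives were run. The number of the 8 genes called moved as follows, with the percentage of all genes called in the same fit. In whole kidneys it was 3 (17.3%), with 6 by DESeq2 (22%), 7 with a mitochondrial limit of 20% (19.2%), 5 without proximal tubule cells (18.8%) and 1 to 4 with 1 mouse left out (8.68% to 23.3%). In principal cells it was 4 (8.23%), with 2 to 3 leaving out 1 mouse (3.85% to 11.6%) and 1 in cluster 28 of resolution 2 alone (6.84%). Leaving out 1 mouse gave 0 to 3 in the proximal tubule (1.36% to 14.3%, against 2 and 6.24%), 0 to 1 in the thin limb (0.193% to 2.14%, against 0 and 0.775%), 0 to 1 in type A intercalated cells (0.313% to 2.58%, against 1 and 1.43%), 0 to 5 in the endothelium (4.10% to 16.6%, against 2 and 9.54%), 4 to 5 in connecting tubule cells (17% to 24.9%, against 5 and 23.7%), 1 to 3 in injured tubule cells (7.20% to 15.9%, against 3 and 12.7%) and 0 to 2 in cycling cells (0.151% to 23.2%, against 1 and 4.66%). Connecting tubule cells gave 3 with principal cells added (14.9%). They gave 4 at resolution 2 (24.6%) and without doublet removal (24.8%), where only 5 of the 8 genes were tested. Without the filter on low counts the number was 3 in the thin limb (2.26%), 3 in cycling cells (8.54%), 2 in type A cells (1.90%) and 5 in the endothelium (8.58%), and DESeq2 called 1 in the thin limb (1.42%). Type A cells gave 2 at the 20% limit, reclustered (4.54%) or with names kept (1.23%), and 0 without doublet removal (1.2%), at resolution 2 (2.45%) or with all intercalated cells and cluster 28 (3.91%). Cycling cells gave 0 at the 20% limit (5.01%), without doublet removal (8.16%) and in cluster 27 alone (0.700%). Endothelial cluster 15 alone gave 0 (0.196%), as did clusters 30 (0.211%) and 31 (0.890%) of resolution 2, and injured tubule cells at resolution 2 gave 1 (10.2%). Of the cell type shares 8 were called, 5 at the 20% limit and 4 to 10 leaving out 1 mouse, and of the 7 interactions 4 (3 to 5). At the 20% limit, connecting tubule cells could not be fitted after reclustering, since too few DOCA-salt cells remained.

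The replicate numbers showed no pairing of the mice in whole kidneys (correlations of same-numbered mice -0.019, -0.413 and -0.048). These correlate deviations from means of only 3 mice, so they cannot tell whether same-numbered mice shared a batch. Replicate 3 had the lowest median UMIs per cell in both groups, 4787 in sham and 5869 in DOCA-salt mice. With the replicate block the count was 2 in whole kidneys (10.4% of all genes called), 2 in principal cells (4.65%), 2 in cycling cells (1.60%) and 0 in the proximal tubule (1.25%), type A cells (0.410%) and the endothelium (3.78%).

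Directions that turned were mostly of genes not called, and all values here are log2 changes. In whole kidneys Aqp6 went from -0.14 (without sham mouse 2) to 0.27 leaving out 1 mouse, was -0.05 without DOCA-salt mouse 3, -0.74 at the 20% limit and -0.30 without proximal tubule cells. In connecting tubule cells Aqp6 went from -1.29 (without DOCA-salt mouse 2) to 1.48, and in all intercalated cells it was 0.32. Aqp1 in principal cells went from -0.46 to 0.14 and was 0.60 at the 20% limit. Aqp1 in connecting tubule cells went from -1.02 to 0.15 and in the proximal tubule from -0.034 to 0.12, being -0.0099 without doublet removal. Its thin limb minus proximal tubule difference went from -0.090 to 0.20 and was -0.0072 with library size only. Avpr2 in principal cells was -0.081 with connecting tubule cells added, -0.060 with cluster 31 too and -0.12 in cluster 28 of resolution 2, Aqp1 in the thin limb was -0.014 in cluster 33 alone and -0.17 in cluster 36 of resolution 2, Aqp4 in cycling cells went from -0.55 (without DOCA-salt mouse 3) to 0.72 and was -0.11 with the replicate block and -0.025 without cells of over 2% proximal tubule marker UMIs, and Aqp2 in type A cells went from -1.77 to 0.044. Of called values, Aqp1 and Aqp11 of the endothelium turned in cluster 15 alone (0.15 and 0.22) and in clusters 30 (0.051 and 0.095) and 31 (0.94 and 0.36) of resolution 2. The causes were not tested.

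Leaving out 1 mouse, the differences of the log2 ratios in principal cells ranged from 1.99 to 2.31 (Aqp4 to Aqp3), 0.558 to 0.836 (Aqp2 to Aqp3) and -0.446 to -0.31 (Aqp2 to Avpr2). The differences in shares of cells with a UMI, in percentage points, ranged in connecting tubule cells from -38.5 to -36.6 (Aqp2), -29.0 to -24.1 (Aqp3), 1.69 to 4.28 (Aqp4) and -5.10 to -3.65 (Avpr2), and in principal cells from -3.16 to -1.93 (Aqp2), -24.1 to -20.5 (Aqp3), 32.8 to 38.9 (Aqp4), 0.428 to 1.96 (Aqp6) and 0.592 to 5.37 (Avpr2). Of the other values recomputed, 792 were counted as the same, 83 lost a call, 27 gained one and 64 moved. For a gene, a difference of changes or a cell share, the same means that direction and call were kept. The numbers of all genes called in a type were also among the 792 where they stayed close. All 64 that moved were such numbers.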
